A study of Mus musculus with 5 samples.

Results

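The genes described here encode the receptors through which vascular endothelium senses vascular endothelial growth factor (VEGF) and the angiopoietins, together with partners that act at the same membrane. They are the VEGF receptors Kdr and Flt1, the neuropilin co-receptors Nrp1 and Nrp2, the Tie receptors Tek and Tie1, the phosphatase Ptprb, the junctional cadherin Cdh5 and the secreted factor Egfl7. These 9 genes were taken by symbol out of 19127 genes in the deposited table, and all 9 were present. They were chosen by role after their high level in these libraries and their difference between the groups had been seen, so their levels and their differences between the groups are given as a description. Counts of calls from the fits over all genes are printed for them beside the share of all genes, and nothing is read from them. RNA came from neutrophils sorted on Ly6G from the blood of male mice aged 7 to 10 weeks at Zeitgeber time 13. The 2 libraries labelled BMALf/f x Mrp8Cre, numbered 2 and 3, carried floxed Bmal1 (gene symbol Arntl), and the 3 libraries labelled CXCR4f/f x Mrp8Cre, numbered 1, 2 and 3, carried floxed Cxcr4. In both groups Mrp8Cre, a recombinase under a promoter active in neutrophils and to some extent in other myeloid cells, was present. No unfloxed group was analysed here, and no label says whether each library came from a separate animal, so the spread between libraries may be partly technical.

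As background, VEGF-A signals mainly through the kinase KDR, while FLT1 binds it tightly, signals weakly and also exists as a soluble decoy. Neuropilins bind VEGF and class 3 semaphorins and pass signals on through KDR or plexins. TEK is the angiopoietin receptor, TIE1 is its partner without a well-established ligand of its own, and the phosphatase encoded by Ptprb acts on TEK and on the VE-cadherin junction that Cdh5 builds. EGFL7 is secreted by endothelium, and its gene hosts the microRNA miR-126. These genes are textbook markers of blood vessel lining, and neutrophils are not known for most of them, although some monocytes, plasmacytoid dendritic cells and regulatory T cells carry NRP1, FLT1 or TEK.

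The libraries held between 356872 reads (CXCR4f/f library 1) and 9101826 reads (CXCR4f/f library 3), and 3 reads were worth 6.46 normalised counts in the first and 0.351 in the second. Core neutrophil genes (16 listed) made up 1.29% and 0.863% of the column in BMALf/f libraries 2 and 3, against 2.30%, 0.512% and 0.0475% in CXCR4f/f libraries 1, 2 and 3, lowest in CXCR4f/f library 3. Per kilobase, the endothelial cadherin gene Cdh5 stood at 367 and 266 normalised counts in BMALf/f libraries 2 and 3, against 286, 655 and 414 in CXCR4f/f libraries 1, 2 and 3. The neutrophil receptor gene Csf3r stood at 672 and 384 per kilobase, against 258, 127 and 11.4, so Cdh5 exceeded Csf3r in all 3 CXCR4f/f libraries and in neither BMALf/f library. The order of the libraries depended on the neutrophil gene chosen. Cxcr2 ran like Csf3r, with 1051 and 768 normalised counts against 426, 349 and 24.1. S100a9 was highest in CXCR4f/f library 1, with 2749 and 2198 against 6509, 2216 and 137. The comparison with Csf3r therefore does not stand for neutrophil genes as a whole. Endothelial RNA was thus abundant in libraries labelled as sorted neutrophils, and whether each column holds the sample its label names could not be checked. Ly6g, which encodes the sorting antigen, stood at 6.31 and 5.16 against 30.1, 0 and 1.05, the 0 in CXCR4f/f library 2 allowing up to 0.633. The targeted gene Cxcr4 had 399 and 128 normalised read counts in the BMALf/f libraries and 15.1, 72.2 and 4.80 in the CXCR4f/f libraries. Arntl had 4.81 and 27.6 in the BMALf/f libraries, against 15.1, 1.90 and 1.05 in the CXCR4f/f libraries, and so did not follow its label. These values cover whole genes and say nothing of a floxed segment alone. Groups are therefore named by their labels.

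All 9 genes were read well above the counting floor in every library, with between 55 reads (Tie1 in CXCR4f/f library 1) and 71461 reads (Ptprb in CXCR4f/f library 3). Together they made up 0.667% and 1.21% of the column in BMALf/f libraries 2 and 3, and 0.891%, 1.12% and 2.07% in CXCR4f/f libraries 1, 2 and 3. The share was lowest in BMALf/f library 2 and highest in CXCR4f/f library 3, and BMALf/f library 3 overlapped the CXCR4f/f range. Among 14861 genes with a coding transcript length, ranked by level per kilobase of their longest coding transcript, the highest-placed member was Cdh5 in BMALf/f library 2 (place 59), Kdr in BMALf/f library 3 (place 36), Cdh5 in CXCR4f/f libraries 1 and 2 (places 69 and 32) and Kdr in CXCR4f/f library 3 (place 19). In bulk RNA, fewer cells of a type and less RNA per cell cannot be told apart.

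Sequence upstream of the start is shown for the VEGF receptors and the neuropilins, because these are 2 pairs of related receptors whose balance of reads differed between libraries. Each run is RefSeq sequence (GRCm38.p6), 5′ to 3′ on the strand of the gene, taken before the RefSeq start and holding no annotated exon base. The Nrp1 run lies inside the longer span that GENCODE gives this gene. Capitals mark AGGAAG or its reverse complement, a core that many ETS factors bind. The windows are chr5:75978459-75978705 (minus strand, Kdr), chr5:147726012-147726261 (minus strand, Flt1), chr8:128358823-128359072 (plus strand, Nrp1) and chr1:62703067-62703284 (plus strand, Nrp2).
Kdr: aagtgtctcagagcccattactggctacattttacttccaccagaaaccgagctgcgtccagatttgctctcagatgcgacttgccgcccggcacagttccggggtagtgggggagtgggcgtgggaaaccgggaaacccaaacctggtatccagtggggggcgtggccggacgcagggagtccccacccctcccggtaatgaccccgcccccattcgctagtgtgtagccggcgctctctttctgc
Flt1: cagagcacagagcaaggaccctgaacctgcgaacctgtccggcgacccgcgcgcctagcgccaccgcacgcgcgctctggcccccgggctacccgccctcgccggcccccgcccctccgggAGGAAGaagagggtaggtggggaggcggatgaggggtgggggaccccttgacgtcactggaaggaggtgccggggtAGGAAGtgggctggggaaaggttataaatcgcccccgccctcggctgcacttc
Nrp1: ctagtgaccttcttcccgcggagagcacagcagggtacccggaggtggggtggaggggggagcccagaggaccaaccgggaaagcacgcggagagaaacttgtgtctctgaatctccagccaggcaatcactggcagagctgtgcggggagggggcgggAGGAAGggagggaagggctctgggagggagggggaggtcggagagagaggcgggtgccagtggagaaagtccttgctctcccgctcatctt
Nrp2: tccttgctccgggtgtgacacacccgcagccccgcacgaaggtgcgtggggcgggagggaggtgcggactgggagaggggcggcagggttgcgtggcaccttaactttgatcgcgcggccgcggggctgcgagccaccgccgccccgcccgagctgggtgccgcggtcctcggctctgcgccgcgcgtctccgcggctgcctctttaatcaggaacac

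Windows of 250 bases before the start were at hand for 7 of the 9 genes, Ptprb and Cdh5 being the other two. Egfl7 has 3 windows, so there were 9 in all. AGGAAG occurred on either strand in 5 of these 9 windows, which belong to Egfl7, Flt1, Nrp1 and Tie1, and in 29.5% of 32851 windows of the same length over all genes. The letters GGGCGG, the core of an SP or KLF site, occurred in 5 of 9 windows and in 32.7% of all windows, and AGATAA, which factors of the GATA family bind, in 0 of 9 windows and 9.99% of all windows. Matches were counted even where different motifs shared bases. A match describes letters only and does not show that a factor binds.

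Kdr (chromosome 5, 75932827 to 75978458, minus strand of GRCm38), the main signalling receptor for VEGF-A, had 722 and 2674 normalised read counts in BMALf/f libraries 2 and 3, against 1246, 1579 and 6062 in CXCR4f/f libraries 1, 2 and 3. BMALf/f library 3 lay above CXCR4f/f libraries 1 and 2, and CXCR4f/f library 3 was highest of all. Kdr averaged 1698 ± 1380 (SD, n = 2) in BMALf/f and 2963 ± 2689 (SD, n = 3) in CXCR4f/f libraries, so each group spread almost as widely as its mean. Flt1 (chromosome 5, 147561604 to 147726011, minus strand), the tight-binding receptor and decoy, had 426 and 467 in the BMALf/f libraries and 458, 843 and 1218 in the CXCR4f/f libraries. Its BMALf/f values were close together, averaging 446 ± 28.5 (SD, n = 2) against 840 ± 380 (SD, n = 3), and CXCR4f/f library 1 fell between them. The table gives whole genes, so membrane-bound and soluble FLT1 transcripts cannot be told apart.

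Nrp1 (chromosome 8, 128358604 to 128503363, plus strand), the co-receptor that strengthens VEGF-A signalling through KDR, had 671 and 1311 in BMALf/f libraries 2 and 3, against 923, 1107 and 2623 in CXCR4f/f libraries 1, 2 and 3. The 5 libraries stood in the same order as for Kdr, so the groups overlapped. Nrp2 (chromosome 1, 62703285 to 62818695, plus strand), the neuropilin best known from lymphatic and venous endothelium, had 46.6 and 413 in the BMALf/f libraries and 181, 41.4 and 754 in the CXCR4f/f libraries. It was the most variable of the 9, with an 18.2-fold span between CXCR4f/f libraries 3 and 2, the lowest value of each group was that of library 2, and the groups overlapped. Nrp2 averaged 230 ± 259 (SD, n = 2) against 325 ± 377 (SD, n = 3), an SD above the mean in both groups.

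Tek (chromosome 4, 94739289 to 94874976, plus strand), the angiopoietin receptor, had 431 and 479.8 in BMALf/f libraries 2 and 3, against 342, 671 and 718 in CXCR4f/f libraries 1, 2 and 3. It was the steadiest of the 9, with a 2.10-fold span over the 5 libraries. Tie1 (chromosome 4, 118471191 to 118490061, minus strand), its partner, had 158 and 149.6 in the BMALf/f libraries and 118, 296 and 285 in the CXCR4f/f libraries, lowest and highest in CXCR4f/f libraries 1 and 2. For both Tie receptors CXCR4f/f library 1 lay below the BMALf/f libraries and the other two CXCR4f/f libraries lay above them. Ptprb (chromosome 10, 116275523 to 116389535, plus strand), the phosphatase that restrains TEK, had 1546 and 4183 in the BMALf/f libraries and 2127, 2989 and 8368 in the CXCR4f/f libraries. Its libraries stood in the order of Kdr and not of Tek, and the groups overlapped.

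Cdh5 (chromosome 8, 104101625 to 104144511, plus strand), encoding VE-cadherin, had 1467 and 1064 in BMALf/f libraries 2 and 3, against 1141, 2617 and 1655 in CXCR4f/f libraries 1, 2 and 3. Unlike Kdr it was highest in CXCR4f/f library 2 and lowest in BMALf/f library 3, and BMALf/f library 2 lay inside the CXCR4f/f range. Egfl7 (chromosome 2, 26580014 to 26593120, plus strand), the secreted factor, had 285 and 313 in the BMALf/f libraries and 306, 843 and 417 in the CXCR4f/f libraries, also highest in CXCR4f/f library 2, with CXCR4f/f library 1 between the BMALf/f values. Exons of Egfl7 share 64 bases with Agpat2 on the opposite strand, and the strand setting of the counting is not given, and Agpat2 held no more than 36.6 normalised read counts in any library. On the same strand they share 264 bases with the predicted coding gene Gm20532, which has no row in the table used here, so reads of the 2 genes cannot be told apart.

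**Figure D1:**
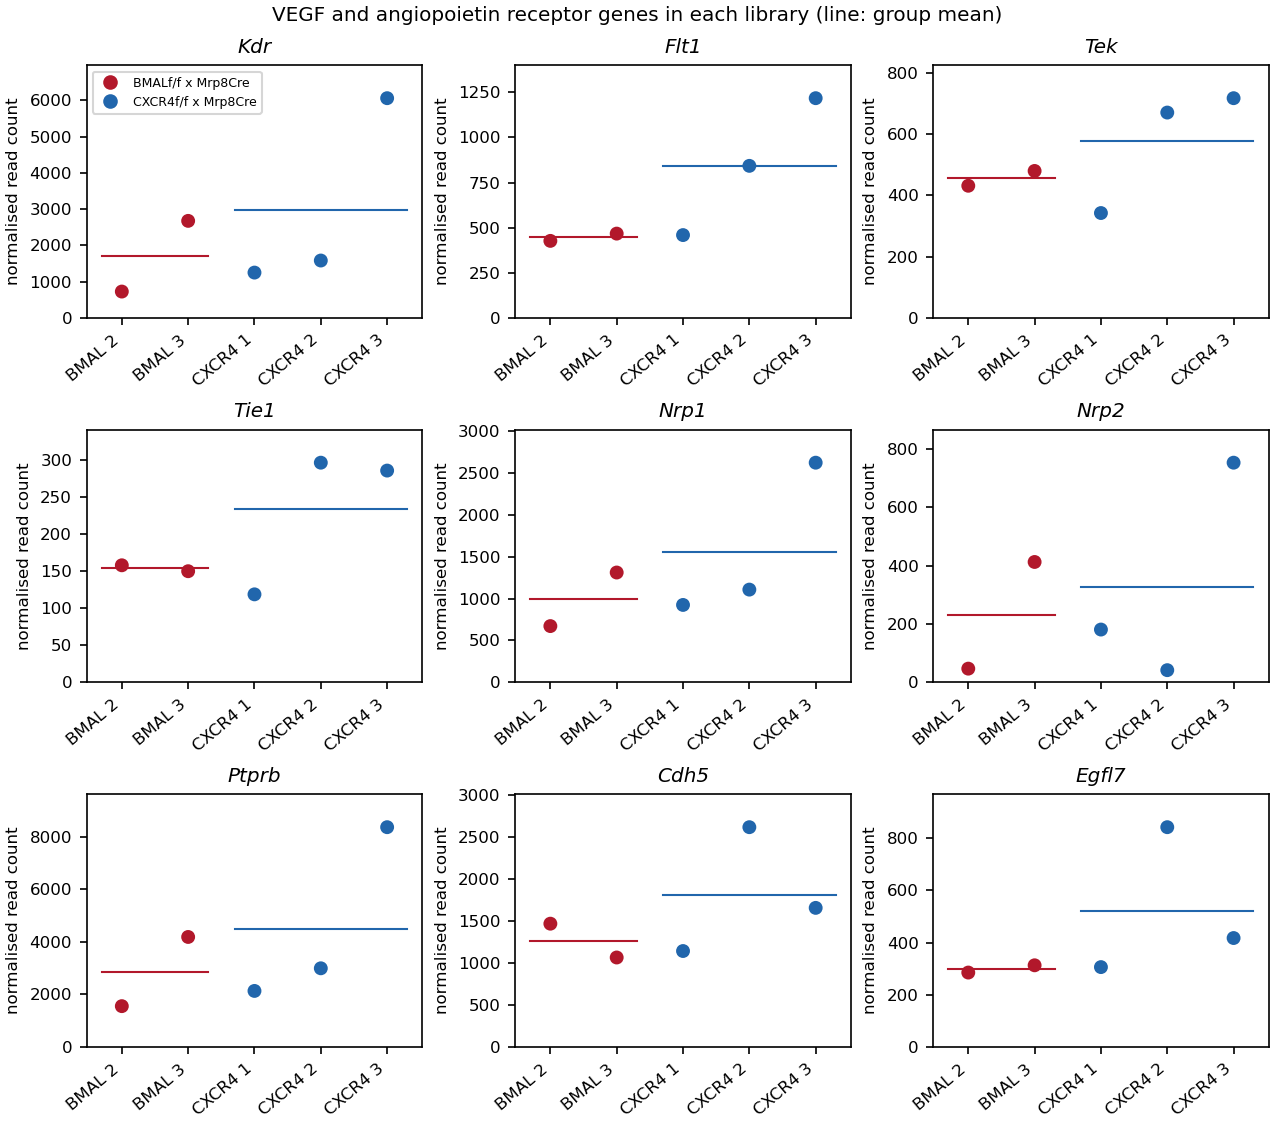
Normalised read counts (vertical axes, starting at 0) of the 9 genes in BMALf/f x Mrp8Cre libraries 2 and 3 (red) and CXCR4f/f x Mrp8Cre libraries 1, 2 and 3 (blue), 1 point per library, with a line at each group mean. The groups overlap for every gene, and CXCR4f/f library 3 is highest for Kdr, Flt1, Tek, Nrp1, Nrp2 and Ptprb while CXCR4f/f library 2 is highest for Tie1, Cdh5 and Egfl7.

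Between the labelled groups, limma called 0 of the 9 genes, beside 0% of the 14632 genes tested at an adjusted p of 0.05. edgeR and DESeq2 also called 0 of the 9, beside 0% and 0.0888% of tested genes. Over all genes, 4.18% had an unadjusted p under 0.05 by limma, 3.58% by edgeR and 4.66% by DESeq2. The 2 BMALf/f values lay outside the CXCR4f/f range for 0 of the 9, beside 18.8% of tested genes (5.22% lower in BMALf/f and 13.6% higher). All 9 differences (BMALf/f minus CXCR4f/f, on the log2(value + 1) scale) were negative, with a median of -0.56, where 44.8% of all tested genes were negative and their median was 0.11. Flt1 had a difference of -0.80 (SE 0.56), Kdr -0.72 (SE 0.90), Egfl7 -0.67 (SE 0.55) and Nrp1 -0.57 (SE 0.66). Ptprb differed by -0.56 (SE 0.87), Tie1 by -0.49 (SE 0.53), Cdh5 by -0.45 (SE 0.61), Nrp2 by -0.36 (SE 1.23) and Tek by -0.27 (SE 0.52). Under each of the 3 other scalings Flt1 and Egfl7, and no other of the 9, had BMALf/f values wholly below the CXCR4f/f values, beside 18.8% to 19.5% of all tested genes free of overlap in either direction and 5.88% to 7.54% in this one.

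The direction rested on single libraries for the genes that varied most. Without BMALf/f library 2 the median of the 9 differences was -0.19 and 6 of 9 were negative, Kdr (0.23), Nrp2 (1.202) and Ptprb (0.15) having turned positive. Without CXCR4f/f library 3, whose neutrophil genes were lowest, the median was -0.11 and 7 were negative, with Nrp2 at 0.68 and Ptprb at 0.013. Without BMALf/f library 3 the median was -0.87 and without CXCR4f/f library 1, the shallowest, it was -0.92. Where a single BMALf/f library is left, it is assumed to vary like the CXCR4f/f libraries. Flt1, Tek, Tie1, Nrp1, Cdh5 and Egfl7 stayed negative in each of the 5 fits without 1 library.

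**Figure D2:**
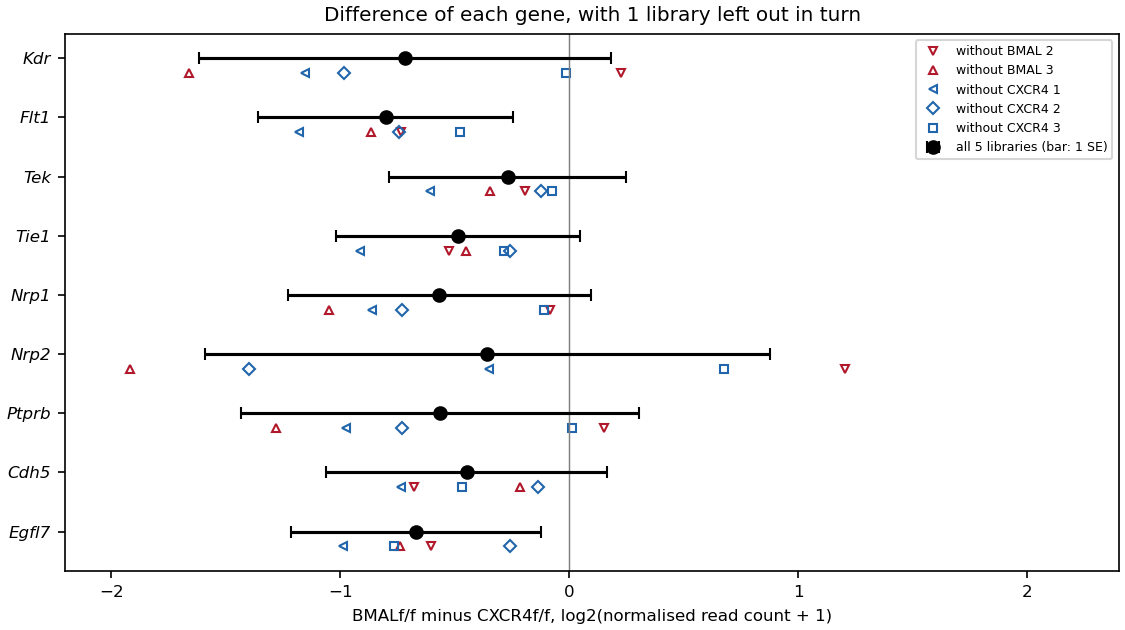
Difference of each gene between the groups on the log2(normalised read count + 1) scale (horizontal axis), for all 5 libraries (black, with 1 standard error) and with each library left out in turn (open symbols, coloured by the group of the library left out). All 9 black points lie below 0, while Kdr, Nrp2 and Ptprb move above 0 without BMALf/f library 2 (0.23, 1.202 and 0.15).

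Inside each labelled group the 9 genes did not vary together. Kdr in library 3 was 3.70 times its level in library 2 of the BMALf/f group, and 3.84 times in the CXCR4f/f group. For Ptprb these ratios were 2.71 and 2.80, for Nrp1 1.95 and 2.37, and for Nrp2 8.86 and 18.2. Flt1 (1.09 and 1.45) and Tek (1.11 and 1.07) were a little higher in library 3 of both groups, Tie1 (0.949 and 0.964) and Cdh5 (0.725 and 0.632) were lower, and Egfl7 was 1.10 in BMALf/f and 0.495 in CXCR4f/f. Thus Kdr, Ptprb and Nrp2 were at least 2-fold higher in library 3 of both groups, a change that 7.58% of 10140 genes with more than 3 reads in all 4 libraries showed, and 0 of the 9 was at least 2-fold lower, where 6.11% of genes were. The medians of these ratios over the 10140 genes were 1.02 and 1.01. No label says what the library numbers stand for.

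Ratios of reads within a library do not depend on scaling, and they show the same split. Kdr had 1.69 reads per Flt1 read in BMALf/f library 2 and 5.73 in BMALf/f library 3. In CXCR4f/f libraries 1, 2 and 3 this ratio was 2.72, 1.87 and 4.98, with the widest 95% Wilson interval in the shallow library 1 (2.32 to 3.18) and a narrow one in library 3 (4.87 to 5.08). Libraries numbered 3 were thus far above libraries numbered 2 in both groups, and CXCR4f/f library 1 lay between. The ratio of Kdr to Cdh5 was 0.493 and 2.51 in BMALf/f libraries 2 and 3, and 1.09, 0.603 and 3.66 in CXCR4f/f libraries 1, 2 and 3, a 7.44-fold span. Nrp2 had 0.0695 and 0.315 reads per Nrp1 read in the BMALf/f libraries and 0.196, 0.0374 and 0.287 in the CXCR4f/f libraries, an 8.42-fold span. In each of these ratios the groups overlapped, and the libraries numbered 2 and 3 of a group lay outside each other's Wilson intervals, which cover counting error only.

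Other pairs kept a near-constant balance. Tek had 2.74 and 3.21 reads per Tie1 read in BMALf/f libraries 2 and 3, against 2.89, 2.27 and 2.52 in CXCR4f/f libraries 1, 2 and 3. This 1.41-fold span was the narrowest of the 12 ratios computed. Ptprb had 2.14 and 1.56 reads per Kdr read in the BMALf/f libraries and 1.71, 1.89 and 1.38 in the CXCR4f/f libraries, a 1.55-fold span, while its ratio to its substrate Tek spanned 3.25-fold. Egfl7 had 0.194 and 0.294 reads per Cdh5 read in the BMALf/f libraries, against 0.268, 0.322 and 0.252 in the CXCR4f/f libraries. Ptprb, Nrp1 and, more steeply, Nrp2 therefore moved in the direction of Kdr. The rest (Flt1, Tek, Tie1, Cdh5 and Egfl7) had no common direction and were not a set of constant balance. Flt1/Cdh5 spanned 2.53-fold, beside 2.15-fold for Nrp1/Kdr. This division was made after the values were seen and was given no test.

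**Figure D3:**
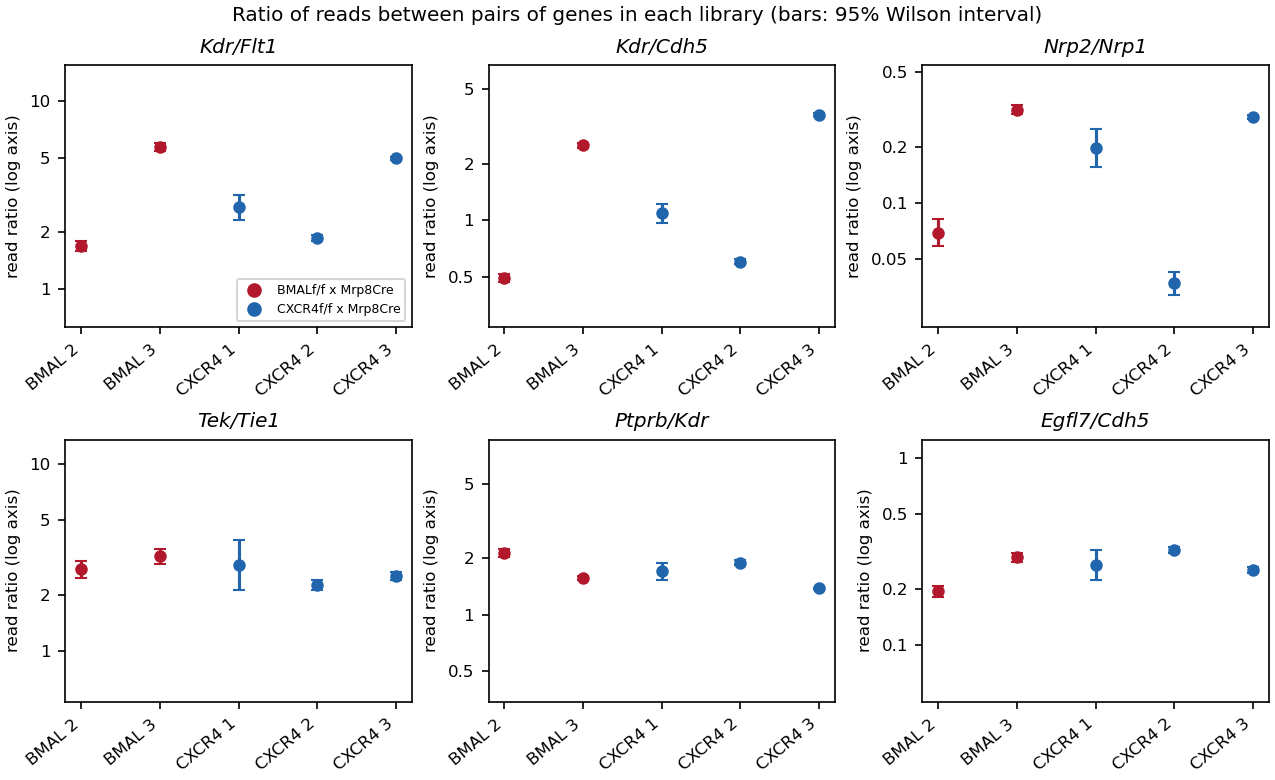
Reads of one gene per read of another (log axes of equal span) in BMALf/f libraries (red) and CXCR4f/f libraries (blue), with 95% Wilson intervals of counting error. Kdr/Flt1, Kdr/Cdh5 and Nrp2/Nrp1 are high in the libraries numbered 3 and low in those numbered 2 in both groups, while Tek/Tie1 runs only from 2.27 to 3.21.

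Per kilobase of the longest coding transcript, Cdh5 was the highest of the 9 in BMALf/f library 2 (367 normalised counts per kilobase) and in CXCR4f/f libraries 1 and 2 (286 and 655). Kdr was highest in BMALf/f library 3 (451) and CXCR4f/f library 3 (1023). Nrp2 was lowest in BMALf/f library 2 (6.93) and in CXCR4f/f libraries 1 and 2 (26.9 and 6.15), and Tie1 was lowest in BMALf/f library 3 (35.3) and CXCR4f/f library 3 (67.3). With the length of all exons joined, Ptprb (314) passed Kdr (296) in BMALf/f library 3 and the other 4 leading genes were the same. The transcript models used for counting are not given, so levels between genes are approximate.

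Markers of other cells moved across the same libraries. Markers of the sinusoidal endothelium of liver (8 of 8 above 3 reads in every library, led by Stab2 and Dnase1l3, a scavenger receptor and a secreted nuclease) made up 0.0843% and 1.32% of the column in BMALf/f libraries 2 and 3, against 0.455%, 0.147% and 1.86% in CXCR4f/f libraries 1, 2 and 3. Like Nrp2, their sum was low in the libraries numbered 2, high in those numbered 3 and between in CXCR4f/f library 1. Lyve1, a hyaluronan receptor shared with lymphatics, was an exception, at 151 and 367 in the BMALf/f libraries and 105, 692 and 303 in the CXCR4f/f libraries. Markers of lung capillary endothelium (8 of 8 above 3 reads in every library, led by Hpgd and Gpihbp1, a prostaglandin-degrading enzyme and the capillary anchor of lipoprotein lipase) were lower in library 3 than in library 2 of both groups, at 0.219% and 0.0760% against 0.170%, 0.463% and 0.158%. Gpihbp1 itself was an exception, at 120.0 and 325 against 164, 233 and 772, with its higher values in the libraries numbered 3. The sum of endothelial genes of all organs, with the 9 left out (18 of 18 above 3 reads in every library, led by Calcrl and Eng), varied less. It stood at 0.438% and 0.390% against 0.379%, 0.760% and 0.621%. Single genes of this list moved in opposite directions, so the steadier sum does not stand for each gene. Eng in library 3 was 3.72 (BMALf/f) and 4.78 (CXCR4f/f) times its level in library 2, and Robo4 2.81 and 2.60 times. For Calcrl these ratios were 0.295 and 0.366, and for Vwf 0.321 and 0.265. The 9 genes summed to 1.52 and 3.11 times that list in the BMALf/f libraries and 2.35, 1.47 and 3.34 times in the CXCR4f/f libraries. The part of these cell types in the differences above was not tested.

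**Figure D4:**
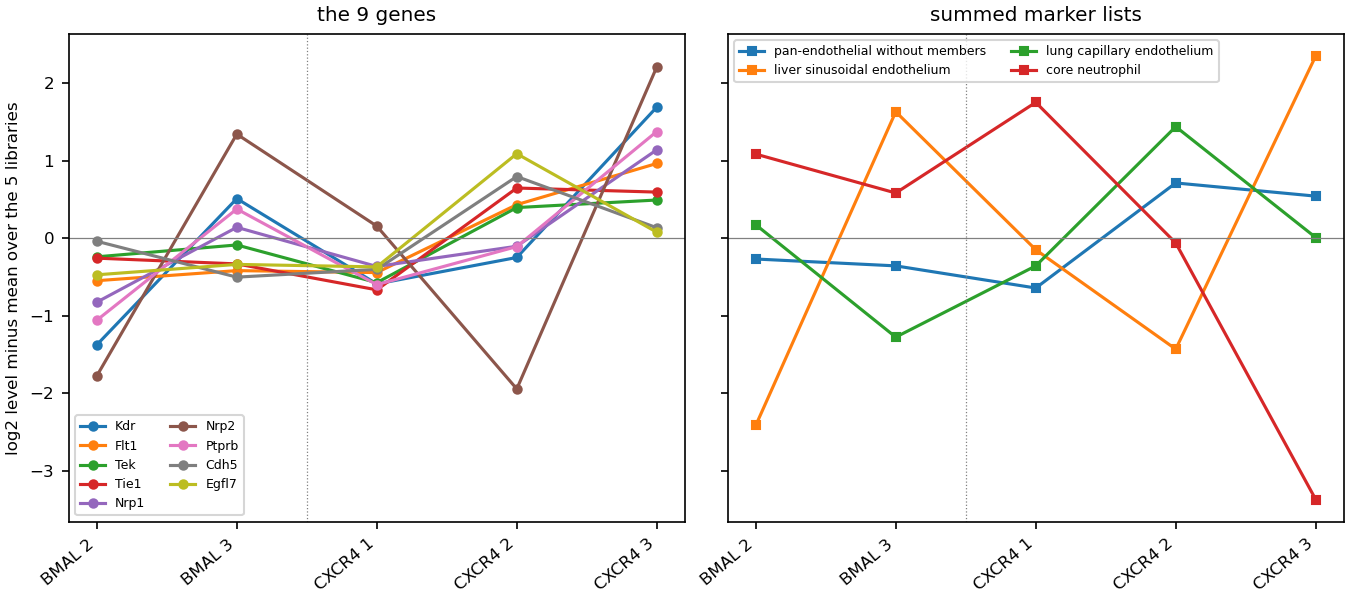
Left, log2(normalised read count + 1) of each of the 9 genes minus its mean over the 5 libraries; right, the same for the log2 summed level of 4 marker lists, with BMALf/f libraries left of the dotted line and CXCR4f/f libraries right of it. Lines only join the points of a gene or list: Nrp2 and the liver sinusoidal list peak in the libraries numbered 3, and the core neutrophil list is lowest in CXCR4f/f library 3.

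Markers of blood cells that can carry single members were also read. Of 5 NK cell markers, Ncr1 and Prf1 had no read in any library and 0 exceeded 3 reads in all 5, and of 7 T cell markers Cd3g had no read and 0 exceeded 3 reads in all 5. T cell markers summed to 13.5 to 29.1 normalised counts in BMALf/f and 7.39 to 13.7 in CXCR4f/f libraries, and NK markers to 0.902 to 1.57 and 0.117 to 2.15. Siglech, which defines plasmacytoid dendritic cells, had 0.301 and 0 in the BMALf/f libraries and 0 in each CXCR4f/f library, although that list (3 of 6 in the table) summed to 178 to 230 and 213 to 463 nearly all from Tcf4, which endothelium also expresses. Monocyte markers (5 of 7 above 3 reads in all libraries) summed to 278 to 530 in BMALf/f and 86.4 to 347 in CXCR4f/f libraries. Most of the sum came from Nr4a1 in CXCR4f/f library 2 (267) and CXCR4f/f library 3 (47.8). In CXCR4f/f library 2 Csf1r had 48.3 and Ly6c2 had 8.87, so the sum there does not stand for each marker. Csf1r was lowest in CXCR4f/f library 3 (27.6), where Kdr was highest. Platelet markers, 4 of 7 above 3 reads in all libraries, summed to 104 to 152 and 105 to 168, and B cell markers, 1 of 6, to 53.4 to 107 and 6.56 to 60.3.

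Other tissues were traced in the same way. Hepatocyte markers summed to 13.8 to 310.3 in BMALf/f and 12.5 to 136 in CXCR4f/f libraries, lung epithelial markers to 14.6 to 329.8 and 7.38 to 214, and Kupffer cell markers to 3.61 to 72.2 and 4.22 to 54.2. Mural cell markers summed to 53.4 to 68.2 and 64.6 to 144, fibroblast markers to 20.9 to 71.9 and 11.8 to 53.8, and erythroid markers to 2328 to 2994 and 87.2 to 2204. Some of these sums came mostly from 1 gene. Rgs5, of the mural list, had 96.9, 116 and 43.7 in CXCR4f/f libraries 1, 2 and 3. Hopx, of the lung epithelial list, had 163 in CXCR4f/f library 2, and the hepatocyte gene Alb had 239 in BMALf/f library 3. Lymphatic endothelial markers summed to 253 to 1292 and 357 to 1766, nearly all from Flt4 and Lyve1, which liver sinusoids share, while Prox1, the lymphatic regulator, had at most 9.08 and Ccl21a had no read.

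The rest of the pathway was read from 6 lists of 66 genes, of which 64 were in the table and 60 were tested. The lists were written with earlier results of these data known. limma called 0 of the 60 higher and 0 lower at an adjusted p of 0.05, and edgeR and DESeq2 also called 0 of the 60. At an unadjusted p under 0.05 there was 1 gene with limma, where 4.18% of all genes passed, and 1 with edgeR (3.58%). It was Sh2d2a, an adaptor that binds KDR, named after its values were seen, with 3.61 and 3.59 normalised read counts in the BMALf/f libraries and 0 in all 3 CXCR4f/f libraries, where 3 reads are worth 6.46 in the shallowest. Its unadjusted p was 0.0193 and its adjusted p was 0.9999 by limma. Over the 60 genes, 41 differences were negative and 19 positive, with a median of -0.34.

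Most VEGF and angiopoietin ligands had low values, though Vegfa had 364 reads in BMALf/f library 2 and 830 in CXCR4f/f library 2. The VEGF-A gene did not move with its receptors. Vegfa, the ligand of Kdr and Flt1, had 109 and 26.2 in BMALf/f libraries 2 and 3, against 51.7, 175 and 3.75 in CXCR4f/f libraries 1, 2 and 3. It was higher in library 2 than in library 3 of both groups, the reverse of Kdr. Vegfc, the lymphatic ligand, had 19.8 and 0.897 against 6.46, 19.8 and 0.703, and Vegfb had 0 and 11.7 against 4.31, 6.54 and 4.10. Flt4, the lymphatic VEGF receptor, had 96.5 and 917 in the BMALf/f libraries and 237, 132 and 1451 in the CXCR4f/f libraries, with library 3 at 9.51 and 11.0 times library 2 (BMALf/f and CXCR4f/f), beside 8.86 and 18.2 times for Nrp2. Of the angiopoietins, Angpt2, which can block or activate TEK, had 24.7 and 14.1 against 30.1, 60.0 and 29.2, a difference of -0.97 (SE 0.63, limma unadjusted p 0.163, adjusted p 0.9999). Angpt1, the activating ligand, had 6.01 and 3.36 against 8.61, 11.0 and 0.468, and Angpt4 had no read in any library.

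Sema3c, a class 3 semaphorin that signals through neuropilins and plexins, ran against Nrp2. It had 887 and 33.9 in BMALf/f libraries 2 and 3, and 370.2, 1644 and 26.9 in CXCR4f/f libraries 1, 2 and 3. Plxnd1, an endothelial plexin, ran with Nrp2, at 127 and 559 against 215, 141 and 727. Plxna2 (88.4 and 254 against 153, 252 and 353) and Plxna4 (43.9 and 83.2 against 40.9, 141 and 156) were both highest in CXCR4f/f library 3. All 10 tested genes of this list had negative differences, with a median of -0.61, where 44.8% of all tested genes were negative. By limma and edgeR 0 had an unadjusted p under 0.05, beside 4.18% and 3.58% of all tested genes.

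Of the 10 junction genes, 7 were highest in CXCR4f/f library 2, as Cdh5 was, and Ctnnb1, Jam2 and Jam3 were highest in CXCR4f/f library 3. Pecam1, an endothelial adhesion molecule also found on leukocytes, had 615 and 439.9 in the BMALf/f libraries and 443, 1378 and 673 in the CXCR4f/f libraries. Tjp1, a tight junction scaffold, had 756 and 504 against 497, 1336 and 1109.7. Ctnnd1 and Ctnna1, the catenins that stabilise VE-cadherin and tie it to actin, had 467 and 402 against 355, 818 and 588, and 423 and 391 against 428, 1072 and 855. Each of these 4 genes is among the 7. All 10 genes of the list had negative differences (median -0.53), where 44.8% of all tested genes were negative. In the list 2 genes were free of overlap, with lower BMALf/f values. Over all tested genes this share was 5.22%, and 18.8% in either direction. By limma 0 had an unadjusted p under 0.05, beside 4.18% of all tested genes.

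Downstream signalling genes, some widely expressed and some restricted to certain cells, had no common direction, with 8 negative and 11 positive differences and a median of 0.14. Pxn, a focal adhesion adaptor, had 276 and 252 in the BMALf/f libraries and 222, 124 and 120.3 in the CXCR4f/f libraries, a difference of 0.82 (SE 0.47, limma unadjusted p 0.119, adjusted p 0.9999). Pik3r1, the regulatory subunit of the lipid kinase PI3K, had 260.3 and 179 against 153, 173 and 90.9. Mapk3 had 247 and 194 against 196, 276 and 159.6, and Ptk2, the focal adhesion kinase, 119 and 111 against 116, 263 and 283. Pxn and Pik3r1 were higher in both BMALf/f libraries than in any CXCR4f/f library, and Mapk3 and Ptk2 overlapped. In this list 5 genes were free of overlap with higher BMALf/f values and 1 with lower ones, of 19 tested, beside 13.6% and 5.22% of all tested genes.

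Among upstream and parallel regulators, Epas1, the hypoxia factor of endothelium, had 4152 and 796 in BMALf/f libraries 2 and 3, against 1896, 10002 and 1671 in CXCR4f/f libraries 1, 2 and 3. It was several-fold higher in library 2 than in library 3 of both groups, the reverse of Kdr and Flt4. Its relative Hif1a had 53.5 and 98.7 against 60.3, 129 and 154. Notch1, at 445 and 431 against 325, 285 and 314, was higher in both BMALf/f libraries than in any CXCR4f/f library, with a difference of 0.51 (SE 0.43, limma unadjusted p 0.269, adjusted p 0.9999), and Notch4, the endothelial Notch receptor, had 97.4 and 78.7 against 51.7, 167 and 76.8. Egln3 was the other gene of the 14 in this list free of overlap, also higher in BMALf/f, beside 13.6% of all tested genes. The list had 8 negative and 6 positive differences and a median of -0.32. It had no gene at an unadjusted p under 0.05 by limma, where 4.18% of all tested genes passed.

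**Figure D5:**
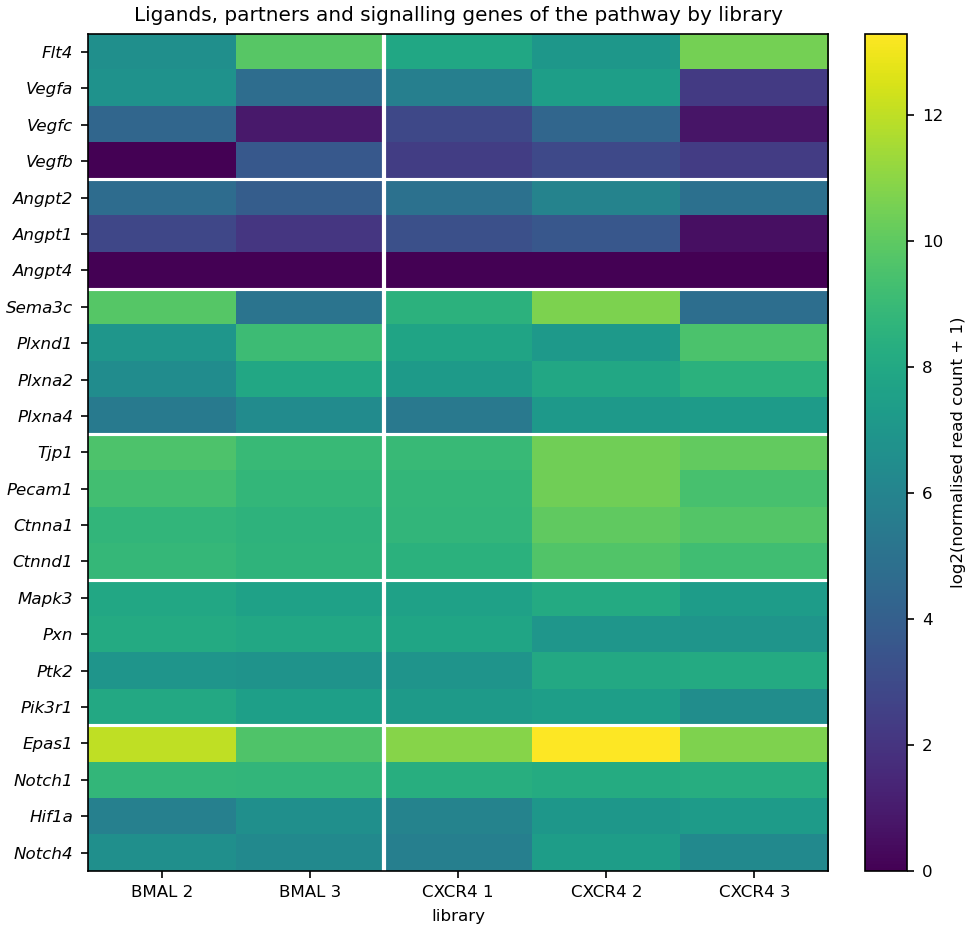
log2(normalised read count + 1), as colour, of the genes with the highest mean in each of the 6 pathway lists (rows, lists parted by white lines) in the 5 libraries (columns, BMALf/f left of the white line). Flt4 and Plxnd1 are brightest in the libraries numbered 3, Sema3c and Epas1 in those numbered 2 of each group.

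Over the 5 libraries, the genes most like the middle of the 9 were found by the root mean square distance between log2 profiles, each centred on its own mean. The 10 nearest of the 14632 tested were Akr1a1 (0.0754), Usp5, Spry4, Akap12, Tmem204, Dnttip2, Eif3b, Phactr4, Strn3 and Efr3a (0.0905). Spry4, an inhibitor of receptor kinase signalling, had 36.7 and 52.2 in the BMALf/f libraries and 43.1, 74.7 and 103 in the CXCR4f/f libraries, and Akap12 had 267 and 413 against 304, 547 and 773. Among the 9 themselves Flt1 lay nearest, at 0.149 (place 62 of all tested genes), and Nrp2 farthest, at 1.48 (place 11848). With 5 libraries, closeness of profile is a description only.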

How the data were processed

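The authors deposited 1 table of normalised read counts (a signal value, never negative) for each gene in each library. CASAVA 1.8.2, RSEM 1.2.3, cutadapt and GRCm38 are listed, without role or order, per the submitters' processing notes. A kit for very small RNA inputs amplified the material, per the labels' protocols. How the values were scaled, and with which annotation and strand setting, is not given in the sources used here. Dividing each column by its lowest value above 0 gave whole numbers for 100% of values, within 0.01, and these were used as reads per gene (whole reads recovered).

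Of 19127 IDs, 18847 were matched to GENCODE M21 symbols, and positions are GRCm38. Genes were kept at a mean CPM of 1 or more (14632), and log2(value + 1) was fitted without pairing by limma 3.58.1 in R 4.3.3, with an intensity trend and two-sided p-values under Benjamini-Hochberg adjustment over all 14632. On this scale fold changes of low genes are understated. Alternatives were edgeR 4.0.16 (quasi-likelihood) and DESeq2 1.42.0 on the recovered reads, other scalings, pseudocounts and filters, a replicate block, and each library left out in turn. All 3 tools were tested on simulated data. Replicates were not duplicates (chi-square divided by its degrees of freedom was 23.5 to 162 within groups). Intervals and the floor of 3 reads cover counting error only, as there were no molecular identifiers.

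The 9 genes, the lists and the markers were chosen with earlier results of these data known. Named genes are the 9, the 4 of each pathway list with the highest mean, the 10 nearest in profile and, for the 3 blood-vessel lists, the 2 highest markers. Other marker lists are given mainly by their sums, and further single genes were named after their values were seen.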

Additional observations from a re-analysis of the deposited data

How the results depend on the processing

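limma called 0 genes in all alternatives run, including 0 of the 60 pathway genes, and edgeR called 0, while DESeq2 called 13 of all genes and 0 of the 9. The median difference of the 9 genes ran from -0.92 to -0.11 with 1 library left out, and moved by less than the residual SD (0.61) in every alternative. All 9 differences were negative under each scaling, pseudocount, filter and tool, and the median over all genes was -0.086 by edgeR and -0.099 by DESeq2, against 0.11 by limma. The number of the 9 with no overlap between groups was 2 (Flt1 and Egfl7) with columns scaled to the same total, with TMM scaling and with median-ratio scaling. It was 0 to 5 with 1 library left out, where 30.6% to 43% of all tested genes had no overlap. Those of the 9 were all lower in BMALf/f, as were 9.3% to 19.2% of all tested genes with 1 library left out. In the 3 scalings 19.5%, 18.8% and 19.1% of all tested genes had no overlap.

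With the replicate number as a block, limma called 0 genes and 0 pathway genes. By limma 2183 of the 14632 tested genes had an unadjusted p under 0.05 with the block, against 612 without it. The median difference of the 9 with the block was -0.92, running from Flt1 at -1.18 (SE 0.25) to Nrp2 at -0.35 (SE 0.36). In that fit the differences of all of the 9 but Nrp2 exceeded 1 SE, Kdr being at -1.15 (SE 0.23) and Tek at -0.61 (SE 0.24). The block leaves few residual degrees of freedom, so these SEs lean on the spread pooled over all genes. Deviations from the group means correlated at 0.284 between the libraries numbered 2 and at 0.388 between those numbered 3. The deviations of the 2 BMALf/f libraries mirror each other, so the unmatched pairs gave -0.284 and -0.388 by construction. BMALf/f library 2 and CXCR4f/f library 1, which share no number, gave 0.129. These correlations are therefore not separate agreements. The block leaves CXCR4f/f library 1 without a partner, so it has no weight there. With 2 shared numbers and no label behind them, the libraries were not treated as pairs. CXCR4f/f library 1, with 356872 reads, limits what can be said of genes below 6.46 normalised counts.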
